A study of Mus musculus with 27 samples.

Results

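Transcripts of 46 genes of the cell cycle and of DNA replication were followed in explants of mouse neural crest treated for up to 48 h with retinoic acid (RA), a derivative of vitamin A. The list named 51 genes of S phase, of G1 and its checkpoint, and of mitosis, and a gene was held where a probe set of the array (a group of short probes against 1 transcript) named it alone. Where several probe sets did so, the brightest on average over the 27 arrays was used, and the whole array named 8251 genes. Of the 5 genes not held, Pole, Ccnb1, Cdc25b and Bub1b had no such probe set, and Tyms was named only together with other genes. The 46 genes held were 19 of S phase, 9 of G1 and checkpoint and 18 of mitosis.

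Each dorsal neural tube was cut along its midline, and one side became a control explant while its partner received RA at 1e-06 M, dissolved in ethanol. Control and RA explants were compared after 6 h (3 and 3 arrays), 12 h (3 and 3), 24 h (4 and 4) and 48 h (4 controls and 3 RA arrays), each array carrying total RNA. Explants of the 6 h groups had first grown for a night on dishes coated with fibronectin, in medium holding 10% horse serum, so 6 h is a time of exposure and not of culture. The labels do not say whether the other groups had this first night too, and strain, stage, number of pooled embryos and what the control sides received are not given in the sources used here. For 48 h control 3 the title says control and the longer description RA, and it was kept as a control.

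A dividing cell passes from G1 into S phase when D-type cyclins with Cdk4, and then cyclin E with Cdk2, inactivate the retinoblastoma protein and free the E2F factors, which switch on genes for origin licensing, replication forks and nucleotide supply. Genes of mitosis follow later in the cycle, and many of them are switched on through a promoter element called the CHR, often with CCAAT boxes nearby. Neural crest cells leave the dorsal neural tube as migratory cells, and in the chick embryo the trunk crest leaves it mainly in S phase.

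The tissue label could not be checked by how many markers lay above an array's lower quartile, since most probe sets do by definition. Of 11 neural crest markers held, 9 were above the lower quartile of every array, among them Sox10, Snai2 and Twist1, while Ednrb was below it on 27 arrays and Foxd3 on 23. Of the neural tube epithelium markers, 6 of 7 were above that quartile on every array and Nkx2-2 was below it on 27. Markers of other cell types were above it on every array too, among them Gata1 and Alas2 of blood, Csf1r of macrophages and Myod1 of muscle. Among the cell cycle genes, Ccne2 had a mean log2 intensity of 3.42 (percentile 6.68 of all probe sets) and Mcm6 of 4.53 (percentile 18.3), so that little could be measured for either. The other 44 lay above the median of all probe sets. Array medians ran from 92.0 to 100.4 in linear intensity, and precision is limited by how many arrays each group has. Arrays of 6 h and of 48 h were scanned on days of their own, whereas 12 h and 24 h shared 2 of the 9 scan days. Exposure time, scan day and the first night in culture therefore cannot be told apart in any comparison with 6 h, and time and scan day cannot be told apart between 24 h and 48 h.

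The promoters of 4 genes show where the listed genes carry these elements, with Rfc4 and Pola1 for replication and Cks2 and Mki67 for mitosis. Each sequence runs 5′ to 3′ on the gene's own strand, from 250 bases before to 50 bases after the start of the transcript in RefSeq, build GRCm38.p6. Capitals mark the words searched on both strands: TTTCCCGC, TTTGGCGC, TTTCGCGC and TTTGCCGC for E2F, TTTGAA for the CHR, and CCAAT. Rfc4 lies at chr16:23127681-23127980 and Pola1 at chrX:93632106-93632405, both on the minus strand. Cks2 lies at chr13:51644982-51645281 on the plus strand and Mki67 at chr7:135716330-135716629 on the minus strand.
Rfc4: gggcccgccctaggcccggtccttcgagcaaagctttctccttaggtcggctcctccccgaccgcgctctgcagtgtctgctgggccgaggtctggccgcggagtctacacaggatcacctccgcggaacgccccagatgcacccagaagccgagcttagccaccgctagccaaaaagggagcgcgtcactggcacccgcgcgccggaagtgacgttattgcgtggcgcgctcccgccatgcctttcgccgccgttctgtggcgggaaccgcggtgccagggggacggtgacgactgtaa
Pola1: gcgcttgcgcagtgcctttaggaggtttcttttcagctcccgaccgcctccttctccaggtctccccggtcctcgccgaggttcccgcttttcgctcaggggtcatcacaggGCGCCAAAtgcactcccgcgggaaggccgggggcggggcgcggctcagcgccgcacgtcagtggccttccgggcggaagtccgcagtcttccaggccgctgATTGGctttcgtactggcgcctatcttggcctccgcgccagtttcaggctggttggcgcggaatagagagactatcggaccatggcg
Cks2: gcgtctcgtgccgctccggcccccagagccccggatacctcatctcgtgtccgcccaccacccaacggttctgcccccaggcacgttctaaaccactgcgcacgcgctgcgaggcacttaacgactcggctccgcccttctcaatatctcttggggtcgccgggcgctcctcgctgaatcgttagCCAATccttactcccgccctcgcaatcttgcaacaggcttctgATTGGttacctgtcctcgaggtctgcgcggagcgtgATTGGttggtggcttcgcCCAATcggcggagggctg
Mki67: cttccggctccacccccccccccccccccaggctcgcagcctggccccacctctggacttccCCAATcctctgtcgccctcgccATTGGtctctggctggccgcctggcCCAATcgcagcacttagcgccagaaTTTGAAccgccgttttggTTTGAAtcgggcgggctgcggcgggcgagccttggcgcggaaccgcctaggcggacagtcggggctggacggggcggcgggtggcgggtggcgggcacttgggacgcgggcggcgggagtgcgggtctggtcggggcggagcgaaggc
Pola1 carried 1 E2F word and 1 CCAAT, Mki67 carried 2 CHR words and 3 CCAAT words, Cks2 carried 4 CCAAT words, and Rfc4 held none of these letters in this window. Rfc4, Cks2 and Mki67 were chosen by how many comparisons they passed, and Pola1 was added after the search because it passed most often among the S phase genes with an E2F word. Promoters of Pcna, with 1 CCAAT, and of E2f1 and Ccnd3 are not shown. The E2f1 window and the first of 2 listed for Ccnd3 held none of the words. The other Ccnd3 promoter held a CCAAT at position -108. The E2f1 window (chr2:154569377-154569676, minus strand) lay inside the annotated gene, whose outer end is at 154569892. Bases before that end were not searched.

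RefSeq gave 44 promoters for 39 of the 46 genes, and E2F words were more frequent in those of S phase, CHR words in those of mitosis. An E2F word stood in 8 of 22 S phase promoters (36.4%), in 1 of 15 mitotic promoters (6.67%) and in 1 of 7 promoters of the G1 and checkpoint genes (14.3%), against 2.26% of all 32851 promoters. The CHR word stood in 11 of 15 mitotic promoters (73.3%), in 3 of 22 S phase promoters (13.6%) and in 0 of 7 of G1, against 17.9% of all. All 11 mitotic promoters with a CHR word also held CCAAT, a combination found in 6.95% of all promoters and in 9.09% of the S phase promoters. CCAAT alone was common, at 37.4% of all promoters, 86.7% of the mitotic, 59.1% of the S phase and 28.6% of the G1 promoters. In the members' promoters, words of different motifs overlapped in 1 place, and E2F words overlapped each other in 2. A match of letters describes the sequence and does not show that a factor binds there.

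Mean transcript levels of S phase and of mitosis were highest at 12 h and lowest at 48 h in both arms, though in RA explants the mitotic mean at 12 h (9.41 ± 0.11, SD, n = 3) lay within the spread of that at 6 h (9.36 ± 0.06, n = 3). In controls the mean log2 intensity of the 19 S phase genes was 8.65 ± 0.01 (SD, n = 3) after 6 h, 8.93 ± 0.15 (n = 3) after 12 h, 8.61 ± 0.09 (n = 4) after 24 h and 8.26 ± 0.22 (n = 4) after 48 h. The mean of the 18 mitotic genes was 9.36 ± 0.01, 9.50 ± 0.07, 9.14 ± 0.03 and 8.66 ± 0.12 at the same times. Every 48 h control lay below every 6 h control in both means, and the same held for the RA arrays. The G1 and checkpoint mean took another course, with 8.64 ± 0.11 at 6 h and then 8.39 ± 0.10, 8.22 ± 0.25 and 8.17 ± 0.19. Of the 46 genes, 32 had their highest control mean at 12 h and 13 at 6 h, and 38 had their lowest at 48 h. In the RA arrays 23 were highest at 12 h and 21 at 6 h, and 35 were lowest at 48 h. The same counts over all probe sets are not given, so they cannot be set against the whole array. In bulk RNA, fewer cycling cells and less transcript in each cell cannot be told apart.

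**Figure D1:**
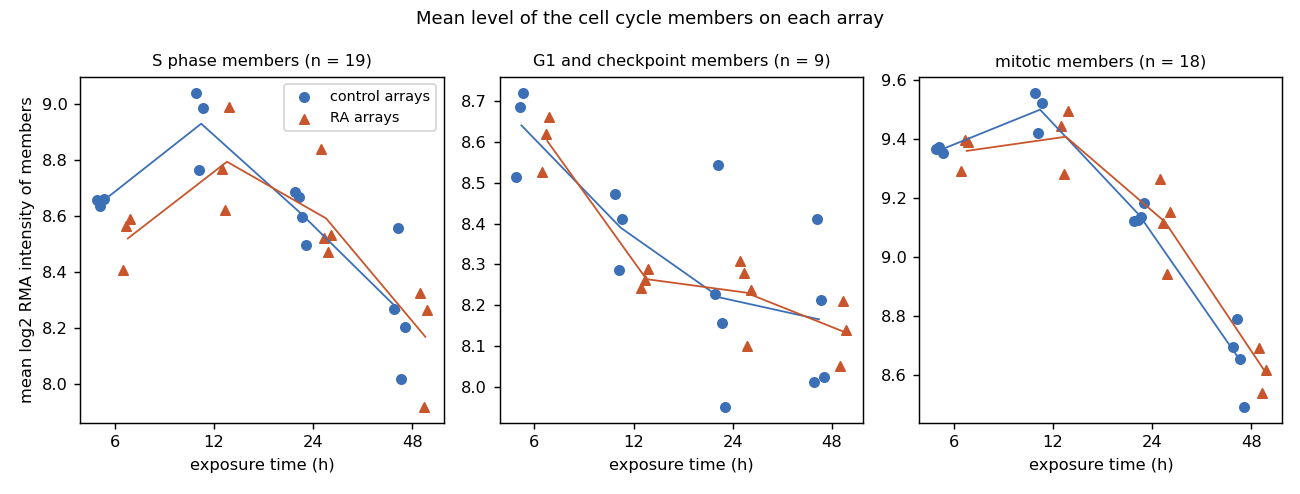
Mean log2 RMA intensity of the S phase (19), G1 and checkpoint (9) and mitotic (18) genes on each array against exposure time in h. Circles are control arrays, triangles RA arrays, and lines join the group means; the S phase mean of controls runs from 8.65 at 6 h through 8.93 at 12 h to 8.26 at 48 h, and the mitotic mean from 9.36 through 9.50 to 8.66.

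Changes were tested with limma in 1 model over the 8 groups, and a gene passed at an adjusted p below 0.05 (Benjamini-Hochberg over all 12422 probe sets). Differences are on the log2 scale of intensity, given as estimate ± SE. From 6 h to 12 h, 6 of the 46 genes rose and 4 fell in controls, against 2.65% and 2.78% of all probe sets. In the RA arrays 8 rose and 5 fell, against 5.1% and 4.53%. From 12 h to 24 h, 0 passed in either arm (0.0564% of all probe sets in controls and 0.0161% in RA arrays). At an unadjusted p below 0.05 there were 16 and 6 genes, beside 816 and 652 of all 12422 probe sets. From 24 h to 48 h, 0 rose and 7 fell in controls (0.459% and 0.62% of all), and 0 rose and 5 fell in RA arrays (0.242% and 0.242%). Across the whole span, 48 h against 6 h, 0 rose in either arm (4.23% of all probe sets in controls, 5.51% in RA arrays), while 21 fell in controls (5.29%) and 20 in RA arrays (6.23%). In a fit of only the groups compared, 6 genes fell in controls, namely Cdc25c, Cenpa, Cks2, Mad2l1, Rfc4 and Rrm2. From 24 h to 48 h the counts were 1 in controls and 0 in RA arrays. The shares of all probe sets in that fit are not given, so these counts cannot be set against the whole array.

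The genes that fell between 6 h and 48 h came from all 8 groups of function. In controls they were 7 of 19 S phase genes, 2 of 9 G1 and checkpoint genes and 12 of 18 mitotic genes, and in RA arrays 6, 2 and 12. The median difference was -0.33 over the S phase genes and -0.65 over the mitotic genes in controls, and -0.15 and -0.76 in RA arrays, beside 0.07 and 0.05 over all probe sets. All 18 mitotic genes had a lower mean at 48 h than at 6 h in controls, and 17 of 18 in RA arrays, where 37.6% and 39.5% of all probe sets were lower. Of the 21 and 20 genes that fell, 19 passed in both arms, which is 90.5% and 95% of the lists. The matching share over all probe sets is not given. The arms were scanned largely on the same days and share an estimate of spread, so they are not independent replicates. Kif11 and Tk1 passed in controls alone and Cks1b in RA arrays alone, and the difference between the arms was tested separately, as given further on.

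**Figure D2:**
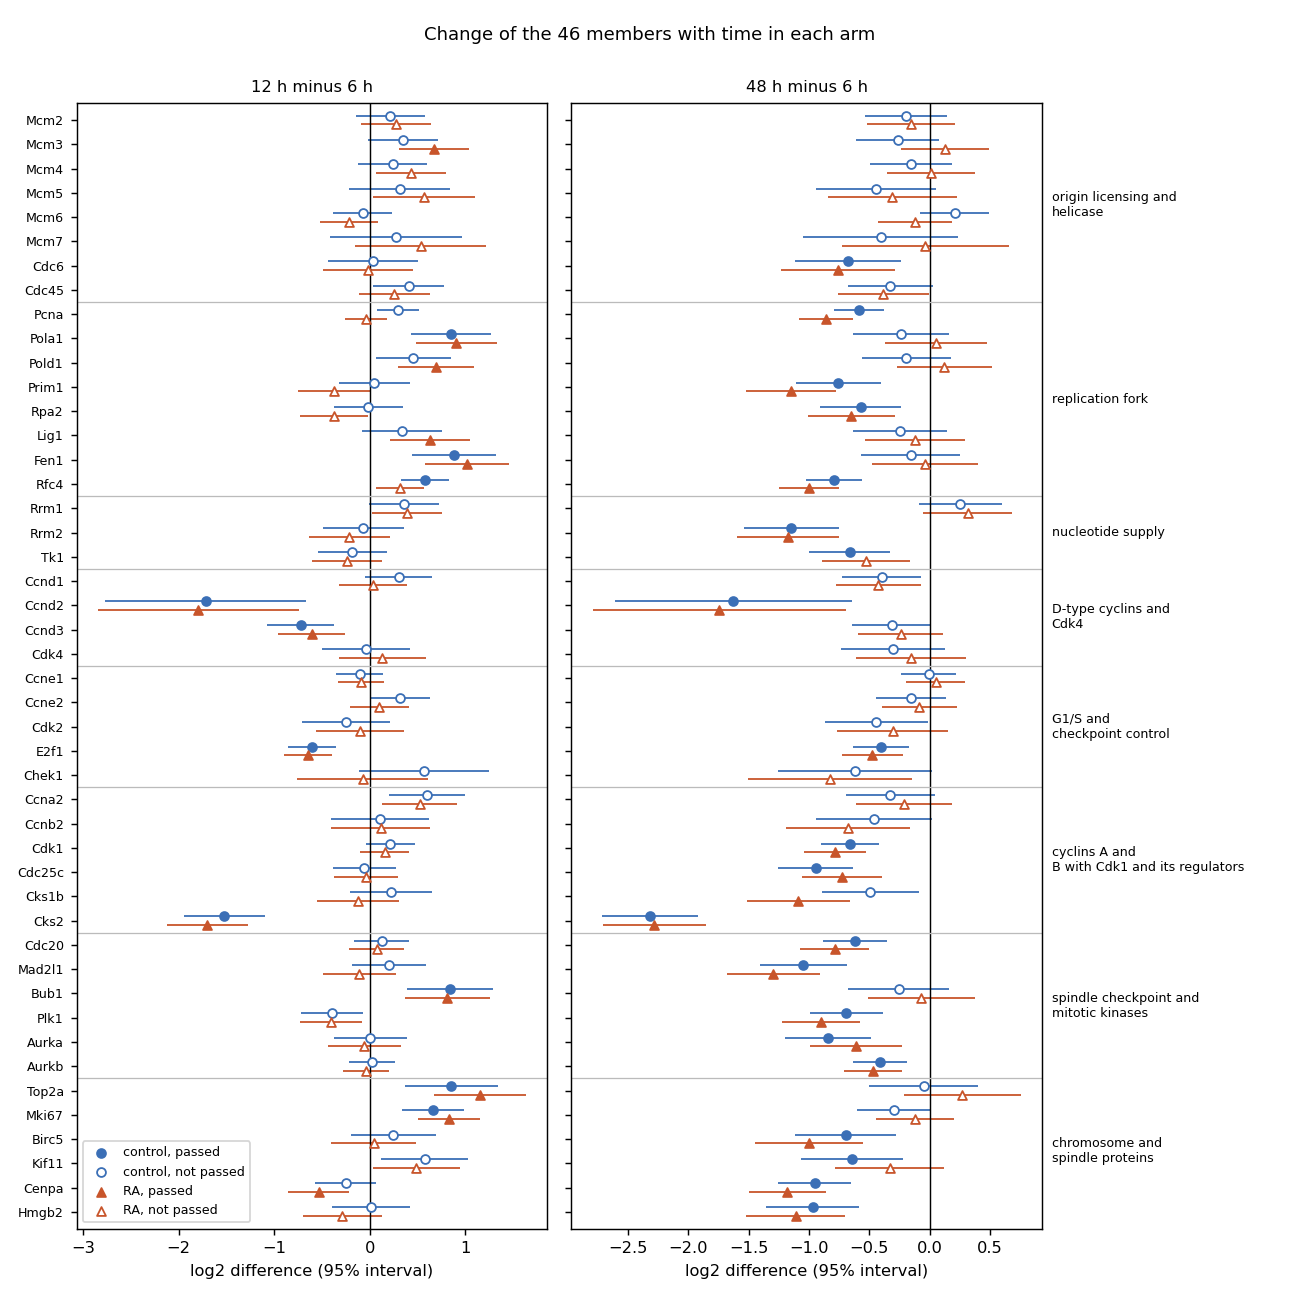
Log2 difference between 12 h and 6 h (left) and between 48 h and 6 h (right) for each of the 46 genes, ordered by function, with 95% intervals from the model. Blue circles are controls, red triangles RA arrays, and filled symbols passed at an adjusted p below 0.05; on the right 21 control and 20 RA symbols are filled, all below 0, with Cks2 farthest out at -2.32 and -2.28.

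Among the genes that license origins and unwind DNA, Cdc6, which helps to load the helicase, fell, and none of the helicase subunits Mcm2 to Mcm7 passed between 6 h and 48 h. In controls Cdc6 was 9.95, 9.96 and 9.71 at 6 h and 8.95, 9.63, 9.09 and 9.12 at 48 h, in log2 intensity of its probe set. In RA arrays it was 9.71, 10.05 and 9.74 at 6 h and 9.0, 8.80 and 9.42 at 48 h. Each 48 h array lay below each 6 h array of its arm, and the difference was -0.68 ± 0.21 in controls (limma, adjusted p = 0.0454) and -0.76 ± 0.23 in RA arrays (adjusted p = 0.0291). The other 7 genes of this group did not pass between 6 h and 48 h, with differences from -0.44 for Mcm5 to 0.21 for the dim Mcm6 in controls. At 12 h only Mcm3 passed, and only in RA arrays, where it went from 9.12, 9.30 and 9.47 to 9.88, 9.80 and 10.24, a difference of 0.68 ± 0.18 (adjusted p = 0.0166). All 3 RA values of Mcm3 at 12 h were above those at 6 h, whereas in controls the values at 12 h (10.28, 9.89 and 10.22) overlapped those at 6 h (9.55, 9.94 and 9.86). A second probe set of Mcm3 gave 0.52 in RA arrays at 12 h and did not pass (adjusted p = 0.0991). The largest control difference of the group at 12 h was that of Cdc45, a partner of the helicase, at 0.40 ± 0.18 (adjusted p = 0.238).

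The replication fork genes split into those that were high at 12 h and near their first level at 48 h and those that fell below it. Pola1, the catalytic subunit of the polymerase that starts new strands, was 6.94, 7.49 and 7.09 in controls at 6 h, then 8.22, 7.85 and 7.99 (12 h), 7.57, 7.74, 7.80 and 7.48 (24 h) and 6.80, 6.69, 6.95 and 7.31 (48 h). In RA arrays it was 6.85, 7.20 and 6.76, then 7.73, 7.96 and 7.83, 7.65, 6.86, 7.48 and 7.71 and 6.66, 6.99 and 7.32. The 12 h arrays stood above all 6 h arrays of their arm, and the rise was 0.85 ± 0.20 in controls and 0.91 ± 0.20 in RA arrays (limma, adjusted p = 0.0148 and 0.00574). Between 24 h and 48 h Pola1 fell by 0.71 in controls (SE 0.18, adjusted p = 0.0479), and 48 h did not pass against 6 h (-0.24 ± 0.19, adjusted p = 0.465). Fen1, the nuclease that trims the flaps of Okazaki fragments, was 7.48, 7.07 and 7.28 in controls at 6 h and 8.51, 7.82 and 8.14 at 12 h, and 6.68, 6.98 and 6.98 and 7.81, 7.71 and 8.17 in RA arrays. No 12 h array overlapped the 6 h arrays, and Fen1 rose by 0.88 ± 0.21 and 1.02 ± 0.21 (adjusted p = 0.0148 and 0.00339). In RA arrays it fell again from 7.83, 7.36, 7.93 and 7.73 at 24 h to 7.11, 6.61 and 6.80 at 48 h, by 0.87 (adjusted p = 0.0453). Pold1, the catalytic subunit of polymerase delta, and the ligase gene Lig1 passed at 12 h in RA arrays alone, with 0.69 ± 0.19 and 0.63 ± 0.20 (adjusted p = 0.0216 and 0.0499), beside 0.46 ± 0.19 and 0.34 ± 0.20 in controls (adjusted p = 0.196 and 0.431). A second probe set of Pold1, with a mean of 5.20 against 8.41, gave the opposite direction at 12 h, -0.19 in controls and -0.42 in RA arrays, and passed in neither (adjusted p = 0.811 and 0.348). That of Lig1, with a mean of 5.33, gave -0.10 in RA arrays at 12 h (adjusted p = 0.794).

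Rfc4, Pcna, Prim1 and Rpa2 fell below their 6 h level. Rfc4, a subunit of the clamp loader, was 8.23, 7.81 and 8.08 in controls at 6 h, then 8.65, 8.53 and 8.66 (12 h), 8.11, 8.03, 8.14 and 8.21 (24 h) and 7.23, 7.35, 7.22 and 7.19 (48 h). In RA arrays it was 8.09, 8.29 and 8.27, 8.67, 8.31 and 8.62, 8.25, 7.79, 7.81 and 7.96 and 7.15, 7.26 and 7.23. The 7 arrays of 48 h lay between 7.15 and 7.35, apart from the other 20, and Rfc4 passed in 5 comparisons, more than any other gene of the list. It rose at 12 h in controls (0.58 ± 0.12, adjusted p = 0.00558), fell from 24 h to 48 h in both arms (-0.88 ± 0.10 and -0.74 ± 0.11, adjusted p = 0.000219 and 0.00342), and was below 6 h at the end (-0.79 ± 0.11 and -1.0 ± 0.12, adjusted p = 8.07e-05 and 1.07e-05). Pcna, the sliding clamp that Rfc4 helps to load, was 10.57, 10.37, 10.54 and 10.63 in controls at 24 h and 10.13, 9.91, 9.68 and 10.10 at 48 h, and 10.49, 10.52, 10.61 and 10.56 and 9.94, 9.86 and 9.86 in RA arrays. The 48 h arrays were all below the 24 h arrays, and Pcna fell by 0.57 and 0.66 (adjusted p = 0.00365 and 0.00342). Against 6 h (10.53, 10.46 and 10.62 in controls, 10.62, 10.76 and 10.87 in RA arrays) the difference was -0.58 ± 0.10 and -0.86 ± 0.11 (adjusted p = 0.000546 and 1.46e-05). Prim1, the primase subunit that makes RNA primers, went from 7.76, 7.60 and 7.60 to 6.54, 7.38, 6.64 and 7.02 in controls and from 7.68, 7.80 and 7.99 to 6.74, 6.44 and 6.85 in RA arrays between 6 h and 48 h. All 48 h arrays were lower, by 1.69-fold in controls and 2.22-fold in RA arrays (adjusted p = 0.00554 and 0.00017). Rpa2, of the complex that covers single strands, fell by 0.57 and 0.65 (adjusted p = 0.0265 and 0.0146).

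Of the 3 genes of nucleotide supply, Rrm2 fell in both arms and Rrm1, its partner in ribonucleotide reductase, did not pass in either. Rrm2, the small subunit, was 10.29, 10.28 and 10.42 in controls at 6 h and 9.16, 9.67, 8.75 and 9.15 at 48 h, and in RA arrays 10.0, 10.23 and 10.39 and 9.07, 8.74 and 9.29. Every 48 h array was lower than every 6 h array, and Rrm2 fell by 1.15 and 1.17 (SE 0.19 and 0.20), a 2.21-fold and a 2.25-fold difference (limma, adjusted p = 0.000389 and 0.000433). Rrm1, the large subunit, was 9.83, 9.74 and 9.70 and 9.81, 10.26, 9.90 and 10.06 in controls at these times, a difference of 0.25 ± 0.17 (adjusted p = 0.369), and 0.32 ± 0.18 in RA arrays (adjusted p = 0.315). Tk1, the thymidine kinase of dividing cells, went from 9.67, 9.23 and 9.44 to 8.85, 8.95, 8.60 and 8.74 in controls, all 48 h arrays below all 6 h arrays (-0.67 ± 0.16, adjusted p = 0.0111), with -0.53 ± 0.18 in RA arrays (adjusted p = 0.0513). A second and dimmer probe set of Tk1, with a mean of 6.31, gave 0.01 in controls (adjusted p = 0.967).

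Among the genes of G1, cyclin D2 changed most and did so early. Ccnd2 was 7.76, 8.70 and 9.18 in controls at 6 h and 7.0, 6.59 and 6.91 at 12 h, and 8.02, 8.76 and 8.62 and 6.83, 6.44 and 6.75 in RA arrays. The 6 h arrays differed by over 1 on the log2 scale among controls, yet none overlapped the 12 h arrays, and Ccnd2 fell by 1.71 and 1.79 (SE 0.51 and 0.51), a 3.28-fold and a 3.46-fold difference (limma, adjusted p = 0.0483 and 0.0258). At 24 h it was 6.34, 8.76, 6.40 and 6.01 in controls and 6.71, 7.70, 6.40 and 6.36 in RA arrays, and the high value in each arm came from replicate 2, the pair scanned on a day of its own. At 48 h it was 6.30, 7.70, 7.08 and 6.59 and 6.35, 6.93 and 6.89, below 6 h by 3.09-fold and 3.35-fold (adjusted p = 0.0309 and 0.0254), with 48 h control 2 (7.70) close to 6 h control 1 (7.76). Ccnd3, another D-type cyclin, went from 11.45, 11.57 and 11.28 at 6 h to 10.70, 10.58 and 10.85 at 12 h in controls and from 11.41, 11.21 and 11.33 to 10.37, 10.96 and 10.81 in RA arrays. No array overlapped, and Ccnd3 fell by 0.72 and 0.61 (adjusted p = 0.0131 and 0.0244), but at 48 h it did not pass against 6 h (-0.32 ± 0.16 and -0.24 ± 0.17, adjusted p = 0.23 and 0.461). Ccnd1 and Cdk4, the kinase partner of these cyclins, passed in 0 of the comparisons, with control differences of -0.40 ± 0.16 and -0.30 ± 0.21 between 6 h and 48 h (adjusted p = 0.123 and 0.383). In the group of G1/S and checkpoint control, E2f1, the founding E2F factor, was 7.10, 7.42 and 7.48 in controls at 6 h, then 6.75, 6.72 and 6.71 (12 h) and 6.86, 7.08, 6.86 and 6.92 (48 h). In RA arrays it was 7.36, 7.13 and 7.37, 6.60, 6.79 and 6.53 and 6.62, 6.77 and 7.03. The 12 h and 48 h arrays all lay below the 6 h arrays, at 12 h by 0.61 and 0.65 (adjusted p = 0.00389 and 0.00144) and at 48 h by 0.40 and 0.48 (adjusted p = 0.0256 and 0.0109). A second probe set of E2f1 fell too, by 1.06 and 1.01 at 12 h (adjusted p = 0.000321 and 0.000182). The cyclin E genes Ccne1 and Ccne2, Cdk2 and the checkpoint kinase gene Chek1 passed in 0 of the comparisons of the main model. Chek1 ran from 7.45 to 9.04 among the 48 h controls. With array weights in limma, Chek1 rose at 12 h in controls (0.53, adjusted p = 0.0373). In that fit it fell by 48 h in both arms (-0.80 and -0.73, adjusted p = 0.0465 and 0.0422).

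Cks2, which encodes a small subunit bound by Cdk1, fell farthest of the 46 genes. It was 11.30, 11.39 and 11.60 in controls at 6 h, then 9.89, 9.86 and 9.97 (12 h), 9.72, 9.53, 9.39 and 9.92 (24 h) and 8.47, 9.42, 9.22 and 9.35 (48 h). The RA arrays gave 11.85, 11.36 and 11.32, 9.91, 9.68 and 9.85, 9.86, 9.79, 9.39 and 9.52 and 8.92, 9.24 and 9.52. The 6 arrays of 6 h lay between 11.30 and 11.85, and no later array exceeded 9.97. The drop at 12 h was 2.87-fold in controls and 3.24-fold in RA arrays (limma, adjusted p = 0.000199 and 2.3e-05), and at 48 h it was 4.98-fold and 4.86-fold (adjusted p = 2.13e-07 and 2.17e-07). Its close relative Cks1b went from 10.26, 9.82 and 9.99 to 9.86, 9.63, 9.37 and 9.26 in controls between 6 h and 48 h, and from 10.32, 10.35 and 10.43 to 9.50, 9.16 and 9.17 in RA arrays. The RA difference of -1.09 ± 0.21 passed (adjusted p = 0.00107) and the control difference of -0.49 ± 0.19 did not (adjusted p = 0.117). Cdk1, the kinase that drives entry into mitosis, went from 10.23, 9.80 and 9.80 to 9.36, 9.31, 9.29 and 9.18 in controls and from 10.0, 10.15 and 10.11 to 9.42, 9.12 and 9.36 in RA arrays. Each 48 h array was below each 6 h array, by 1.58-fold and 1.72-fold (adjusted p = 0.000706 and 0.000175). Cdc25c, the phosphatase that activates Cdk1, fell by 0.95 and 0.73 (adjusted p = 0.000254 and 0.0037), from 8.44, 8.67 and 8.55 to 7.70, 7.89, 7.20 and 7.63 in controls, and its second probe set fell by 0.73 and 0.49 (adjusted p = 9.7e-05 and 0.00588). The cyclin genes Ccna2 and Ccnb2 did not pass at 48 h against 6 h in either arm. The control differences were -0.33 ± 0.18 and -0.46 ± 0.23 (adjusted p = 0.274 and 0.23). In RA arrays the mean of Ccna2 went from 9.27 to 9.06 and that of Ccnb2 from 10.35 to 9.67. Each 48 h RA array of Ccnb2 lay below each 6 h RA array, and with array weights in limma its RA difference passed (-0.82, adjusted p = 0.0104). Ccna2 was higher at 12 h (mean 9.96 in controls and 9.79 in RA arrays), with each 12 h array above each 6 h array of its arm. This rise did not pass in the main model. It passed in both arms with array weights (limma, adjusted p = 0.00189 and 0.0214) and with only the groups compared (adjusted p = 0.00536 and 0.0368).

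Of the 6 genes of the spindle checkpoint and mitotic kinases, 5 fell in both arms. Mad2l1, a checkpoint protein that holds cells before anaphase, was 10.10, 10.28 and 10.29 in controls at 6 h, then 9.99, 9.83, 10.12 and 9.97 (24 h) and 9.07, 8.76, 9.57 and 9.30 (48 h). The RA arrays gave 10.27, 10.51 and 10.57, 9.92, 9.88, 9.84 and 9.85 and 8.67, 9.60 and 9.19. The 48 h arrays were all below the earlier ones, 2.07-fold below 6 h in controls and 2.46-fold in RA arrays (limma, adjusted p = 0.000389 and 6.44e-05), and 1.75-fold below 24 h in controls (adjusted p = 0.0115). Aurka, the Aurora kinase of the spindle poles, went from 8.97, 9.03 and 9.23 to 8.37, 8.66, 7.86 and 8.05 in controls and from 8.74, 8.91 and 9.05 to 8.61, 8.02 and 8.23 in RA arrays. It fell by 0.84 and 0.61 with no overlap between the times (adjusted p = 0.0027 and 0.0312). Plk1, the Polo kinase, went from 10.69, 10.999 and 10.70 to 10.24, 10.15, 10.34 and 9.70 in controls and from 10.87, 10.98 and 10.74 to 9.91, 10.06 and 9.92 in RA arrays, and fell by 0.69 and 0.90 (adjusted p = 0.00349 and 0.000434). All 3 probe sets of Plk1 fell in both arms. Cdc20, the activator of the anaphase-promoting complex, went from 11.48, 11.46, 11.17 and 11.27 at 24 h to 10.66, 10.34 and 10.90 at 48 h in RA arrays, all lower at 48 h (-0.71 ± 0.13, adjusted p = 0.0085), and fell against 6 h by 0.62 in controls and 0.79 in RA arrays (adjusted p = 0.00313 and 0.000463). Aurkb, the Aurora kinase of the chromosomal passenger complex, had the smallest drop of the 5 in controls, 0.41 (adjusted p = 0.0157), and fell by 0.47 in RA arrays (adjusted p = 0.00797). Bub1, a checkpoint kinase, took the course of Pola1: it was 7.98, 8.24 and 8.19 in controls at 6 h, then 9.02, 8.78 and 9.12 (12 h) and 7.56, 7.67, 8.10 and 8.17 (48 h). The 12 h values were above all 6 h values, with a rise of 0.84 ± 0.22 in controls and 0.81 ± 0.22 in RA arrays (adjusted p = 0.0224 and 0.0182), and 48 h did not pass against 6 h (-0.26, adjusted p = 0.453). The probe sets of Bub1 disagreed, since a dimmer one (mean 6.07 against 8.38) did not pass at 12 h (-0.46, adjusted p = 0.439) and fell at 48 h (-1.13, adjusted p = 0.00596) in controls.

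The genes of chromosomes and the spindle again fell into both courses. Top2a, the topoisomerase that untangles chromosomes, was 8.0, 8.37 and 8.16 in controls at 6 h, then 9.19, 8.80 and 9.11 (12 h) and 8.51, 8.69, 7.82 and 7.49 (48 h), and 7.59, 7.84 and 7.65, 8.76, 8.68 and 9.09 and 8.46, 7.80 and 7.63 in RA arrays. The 12 h arrays were above all 6 h arrays, with a rise of 0.85 ± 0.23 and 1.15 ± 0.23 (limma, adjusted p = 0.0323 and 0.00265), a 1.81-fold and a 2.22-fold difference. At 48 h the controls spread on both sides of their 6 h values, the RA arrays overlapped theirs, and the difference passed in neither arm (-0.05 ± 0.22 and 0.27 ± 0.23, adjusted p = 0.91 and 0.569). Mki67, the proliferation antigen Ki-67, was 8.67, 9.09 and 8.47 in controls at 6 h, then 9.41, 9.41 and 9.40 (12 h), 9.38, 9.06, 9.13 and 9.10 (24 h) and 8.56, 8.53, 8.55 and 8.14 (48 h). It rose at 12 h by 0.66 ± 0.16 and 0.83 ± 0.16 (adjusted p = 0.0127 and 0.0014) and fell from 24 h to 48 h by 0.72 and 0.76 (adjusted p = 0.00676 and 0.0132). Its second probe set, with a mean of 5.64, gave 0.08 and 0.21 at 12 h and passed in neither arm (adjusted p = 0.907 and 0.541). Cenpa, the centromere histone, went from 8.42, 8.46 and 8.29 at 6 h to 7.27, 7.50, 7.68 and 7.30 at 48 h in controls and from 8.48, 8.60 and 8.55 to 7.24, 7.42 and 7.44 in RA arrays. No 48 h array overlapped the 6 h arrays, and Cenpa was 1.94-fold and 2.26-fold lower (adjusted p = 0.000148 and 2.48e-05), and in RA arrays it was already lower at 12 h (-0.54 ± 0.15, adjusted p = 0.0288). Hmgb2, a chromatin protein of dividing cells, went from 8.65, 8.52 and 8.52 to 7.77, 8.10, 7.36 and 7.14 in controls and from 8.54, 8.58 and 8.89 to 7.77, 7.62 and 7.29 in RA arrays, 1.96-fold and 2.16-fold lower (adjusted p = 0.00144 and 0.000574). Birc5, which encodes survivin of the passenger complex, fell by 0.70 and 1.0 (adjusted p = 0.0296 and 0.00316), and Kif11, the spindle motor Eg5, by 0.65 in controls (adjusted p = 0.0471) with -0.33 ± 0.22 in RA arrays (adjusted p = 0.414). The chosen probe sets of E2f1 and Plk1 (suffix _f_at), Mcm3 (_s_at) and Hmgb2 (_r_at) may share signal with related transcripts, which was not tested.

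**Figure D3:**
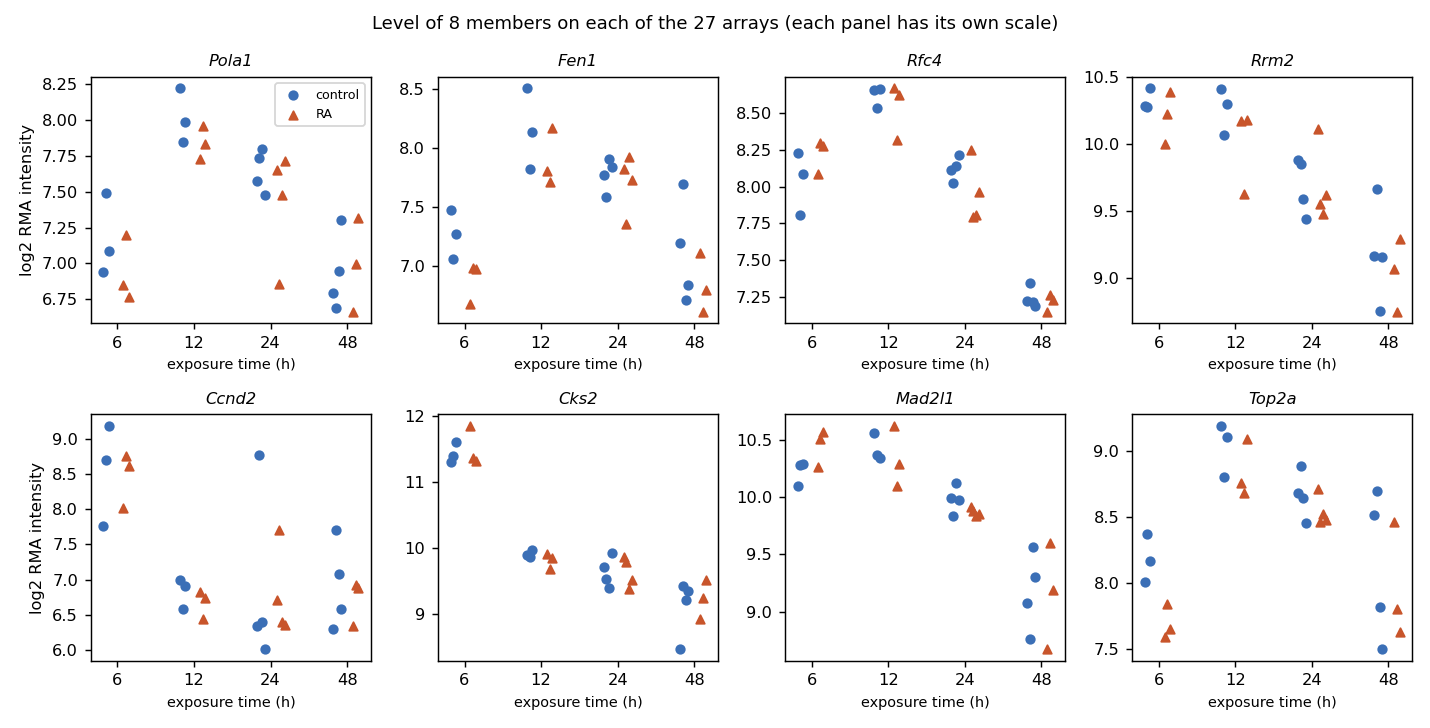
Log2 RMA intensity of 8 genes on each of the 27 arrays against exposure time in h, with circles for controls and triangles for RA arrays; each panel has its own scale. Pola1, Fen1 and Top2a peak at 12 h, Cks2 and Ccnd2 drop between 6 h and 12 h, and Rfc4, Rrm2 and Mad2l1 are lowest at 48 h; Ccnd2 of 24 h control 2 (8.76) stands apart from the other 24 h controls (6.01 to 6.40).

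Beside the promoter words, the changes over time counted as follows. Of the 8 S phase genes with an E2F word, 4 rose at 12 h in RA arrays and 1 in controls, and 1 fell between 6 h and 48 h in each arm. Of the 10 S phase genes whose promoters held none, 1 and 2 rose, and 5 fell in RA arrays and 6 in controls. The median difference between 48 h and 6 h was -0.26 with and -0.58 without an E2F word in controls, and -0.08 and -0.59 in RA arrays. Among the mitotic genes 7 of 11 with a CHR word and 3 of 4 without fell in each arm. These counts describe few genes, and no test of the words was made.

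Scan day in the model changed the counts in both directions. With scan day as a random block, which lowered them, 1 of 46 genes passed at 12 h in controls, Cks2, beside 1.44% of all probe sets, and 5 passed in RA arrays (Cks2, E2f1, Fen1, Mki67 and Top2a) beside 4.1%. From 24 h to 48 h Pcna and Rfc4 fell in both arms, 2 genes beside 0.177% of all probe sets in controls and 0.177% in RA arrays. Between 6 h and 48 h, 14 fell in controls beside 4.59% of all, and 17 in RA arrays beside 7.69%. All shares of probe sets in this paragraph count rises and falls together, so they are not shares that fell. Cks2, Rfc4, Pcna, Prim1, Rrm2, Mad2l1, Cenpa, Hmgb2, Cdk1, Cdc20, Cdc25c, Plk1 and Ccnd2 were among them in both arms. Since 12 h and 24 h shared scan days, that comparison could be made within days, and with scan day as a fixed block 7 genes, where 0 had passed without it, fell from 12 h to 24 h in controls, beside 1.57% of all probe sets. They were Hmgb2 (-0.59), Rrm2 (-0.57), Cenpa (-0.55), Prim1 (-0.53), Aurka (-0.47), Pold1 (-0.46) and Rfc4 (-0.45), with adjusted p values from 0.0164 to 0.0466, and Rfc4 alone fell in RA arrays (-0.54, adjusted p = 0.0389), beside 0.427%. On the arrays of the fullest scan day alone, the median difference of the S phase genes from 12 h to 24 h was -0.39 in controls and -0.18 in RA arrays, and that of the mitotic genes -0.31 and -0.28.

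Leaving out single arrays moved some of these counts. Without 12 h control 1 the control count at 12 h was 3 in place of 10, and without 6 h control 2 or 6 h control 3 it was 4. Without 6 h RA 1 or 12 h RA 3 the RA count was 7 in place of 13, and without 6 h RA 3 it was 8. From 24 h to 48 h the control count of 7 became 3 without 24 h control 3 and 4 without 24 h control 1 or 24 h control 4, and the RA count of 5 became 3 without 24 h RA 1 or 48 h RA 3 and 8 without 48 h RA 1. The 5 arrays 6 h control 3, 6 h RA 2, 6 h RA 3, 12 h control 1 and 12 h control 3, which enter that comparison only through the shared spread, also brought the control count to 4. With any 1 array left out, the number of genes passing between 6 h and 48 h ran from 14 to 24 in controls and from 15 to 22 in RA arrays. Without 48 h control 3, whose labels conflict, 18 genes fell in controls, and with it grouped as RA 19 fell in controls and 22 in RA arrays. Of 27 fits without 1 array, Lig1 at 12 h in RA arrays no longer passed in 21. In controls this number was 19 for Ccnd2 at 12 h, and 19 for Pola1 and 17 for Cdc25c from 24 h to 48 h. Between 6 h and 48 h it was 17 for Kif11 and 15 for Cdc6 in controls. For Fen1 from 24 h to 48 h in RA arrays it was 18. Over all genes that passed or were named, 1938 such values kept their result and 222 no longer passed.

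Other genes of replication and mitosis, named in lists beside the 46, also rose at 12 h and fell by 48 h in part. Of 30 other replication genes held, 7 rose and 0 fell at 12 h in controls, and 0 rose and 5 fell between 6 h and 48 h, with a median difference of -0.19. The 7 included Prim2, the partner of Prim1 (0.86), Rpa1 (0.86), Pole2 of polymerase epsilon (0.86) and Cdt1, which loads the helicase with Cdc6 (0.62), and the 5 included Gmnn, which encodes the Cdt1 inhibitor geminin (-0.74), and Ung, a uracil-DNA glycosylase (-0.95). In RA arrays 6 rose and 2 fell at 12 h, and 1 rose and 7 fell by 48 h. Of all probe sets, 2.65% rose and 2.78% fell at 12 h in controls, then 4.23% and 5.29% by 48 h. In RA arrays these shares were 5.1% and 4.53%, then 5.51% and 6.23%. Of 31 other mitosis genes held, 5 rose and 1 fell at 12 h in controls and 0 rose and 7 fell by 48 h, with a median of -0.29, and in RA arrays 10 rose and 1 fell, then 0 rose and 6 fell. The kinesin genes Kif23, Kif20a and Kif4 were among those 5, with 0.83, 0.71 and 0.66 in controls at 12 h, and Cdca3 (-1.22), a trigger of mitotic entry, and Wee1 (-1.06), the kinase that restrains Cdk1, fell by 48 h. Of 10 CDK inhibitors and pocket proteins, Cdkn1c, which encodes the inhibitor p57, rose by 48 h in both arms (0.50 ± 0.16 and 0.59 ± 0.17, adjusted p = 0.044 and 0.0215). Cdkn1a, which encodes p21, fell at 12 h in controls (-1.15 ± 0.33, adjusted p = 0.0398), and the other 8 did not pass in time.

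Markers of the cell types in the explants moved between the same times. From 6 h to 48 h, 4.23% of all probe sets rose and 5.29% fell in controls, and 5.51% and 6.23% in RA arrays. Between 6 h and 48 h, 4 of 11 neural crest markers fell in controls and 4 in RA arrays, namely Msx1, Msx2, Pax3 and Tfap2a, with control differences from -1.60 to -0.65. Of 7 neural tube markers Sox2 and Pax6 fell in both arms, with -1.98 for Sox2 in controls and -3.15 in RA arrays, and Fabp7 and Hes5 fell and Nes rose in RA arrays. The summed level of the 7 ran from 11.81 to 12.06 in the 6 h controls and from 11.38 to 11.78 in the 48 h controls, and in RA arrays from 11.75 to 11.95 and from 11.16 to 11.70. The summed crest markers ran from 11.39 to 11.68 and from 10.98 to 11.56 in controls. Of 7 surface ectoderm markers Epcam, below the lower quartile on 22 arrays, fell in both arms. The summed level of those 7 ran from 12.31 to 12.57 in controls at 24 h and from 10.39 to 12.07 at 48 h. In RA arrays it ran from 12.31 to 12.87 and from 10.98 to 12.20, with no overlap between these times in either arm. Krt8 and Krt18 (mean log2 11.19 and 10.18) were the brightest of the 7 and weigh most in this sum. From 24 h to 48 h 0 of the 7 passed, and 3 were lower in each arm. Their median difference was 0.03 in controls and 0.02 in RA arrays. Of 8 mesoderm and muscle markers Des and Myog rose in controls, and Meox1 and Myog rose and Myf5 fell in RA arrays. Of the markers of endothelium (6), blood (5) and macrophages (5), 0 passed between 6 h and 48 h. So few markers cannot set this count apart from the shares of all probe sets. The part of the marker shifts in the drop of the cell cycle genes was not tested.

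None of the 46 genes passed between RA and control explants at any time in the limma model. The count was 0 at 6 h, 12 h, 24 h and 48 h and in the mean over the 4 times, where 0.0242%, 0.0242%, 0.153%, 0.274% and 0.564% of all probe sets passed. At an unadjusted p below 0.05 there were 4 genes at 6 h, 5 in the mean and 0 in each of the later groups. Of all 12422 probe sets, 533 did so at 6 h, 699 in the mean, and 309, 228 and 425 at 12 h, 24 h and 48 h. The estimates were small, from -0.52 to 0.34 at 6 h, then from -0.33 to 0.12 (12 h), -0.22 to 0.29 (24 h) and -0.31 to 0.20 (48 h). For 44, 44, 46 and 45 of the 46 genes the 95% interval lay within a difference of 1 on the log2 scale in either direction, and in the mean over the times it did so for all 46. The widest interval at 48 h was that of Ccnd2, from -1.18 to 0.79.

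**Figure D4:**
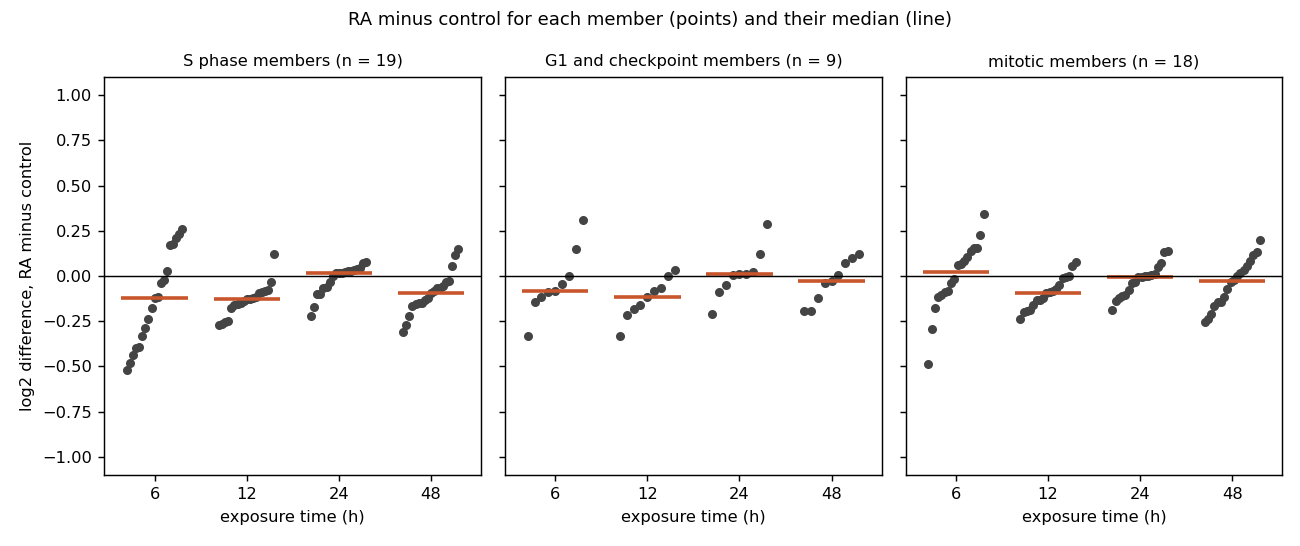
Log2 difference between RA and control arrays for each S phase (19), G1 and checkpoint (9) and mitotic (18) gene at each exposure time in h, with points for genes and a line at their median. At 12 h 42 of the 46 points lie below 0; at 24 h 23 do, and the S phase medians are -0.12, -0.13, 0.01 and -0.09 from 6 h to 48 h.

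At 6 h the lowest RA estimates belonged to Mcm7, Top2a, Mcm3 and Lig1. Mcm7 was 9.53, 9.52 and 9.86 in controls and 8.92, 9.17 and 9.25 in RA arrays, a difference of -0.52 ± 0.33 (limma, adjusted p = 1). Top2a was 8.0, 8.37 and 8.16 and 7.59, 7.84 and 7.65 (-0.49 ± 0.23, adjusted p = 1), and Mcm3 9.55, 9.94 and 9.86 and 9.12, 9.30 and 9.47 (-0.48 ± 0.18, adjusted p = 1). For each of these the RA arrays lay below the control arrays with no overlap at 6 h. These genes were picked for their low estimates, and the share of all probe sets without overlap is not given. Lig1 was 8.38, 8.47 and 8.29 and 7.94, 8.0 and 7.89, again without overlap (-0.44 ± 0.20, adjusted p = 1), and had the lowest mean over the 4 times (-0.25 ± 0.10, adjusted p = 0.542). RA was lower for Lig1 in 10 of 13 record pairs. Each joined a control and an RA array of the same time and scan day with consecutive numbers in the scanner records. In a model with these pairs as a fixed term, added after the data were seen, Mcm3 and Top2a passed at 6 h (adjusted p = 0.028 and 0.0337), 2 genes where 0.95% of all probe sets passed. Over the 4 times Lig1 (-0.21) and Top2a (-0.19) passed in that model (adjusted p = 0.0402 and 0.044), 2 genes where 2.94% of all did. The highest estimate at 6 h was that of Cks1b, with 0.34 ± 0.21 (adjusted p = 1).

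Estimates below 0 were counted whether or not they passed. RA estimates were below 0 in 29 of 46 genes at 6 h, then in 42, 23 and 31 at the later times, where 42.5%, 50.6%, 51.9% and 50.2% of all probe sets were. The median over the 19 S phase genes was -0.12, -0.13, 0.01 and -0.09 at these times, and over the 18 mitotic genes 0.02, -0.09, -0.01 and -0.03. The S phase median at 48 h became 0.01 without 48 h control 2, which has no partner, and likewise with scan day as a block or record pairs as a fixed term. At 24 h it became -0.10 without 24 h RA 1, -0.04 without 24 h control 4 and -0.01 without 24 h control 3. The mitotic median changed sign under 3, 2 and 3 of the alternatives at 6 h, 24 h and 48 h. The genes are measured on the same arrays, so 1 array shifts many of them together. By record pair the S phase mean was lower in RA by 0.25, 0.07 and 0.07 at 6 h. At 12 h the pairs differed by -0.27, -0.14 and 0.01, at 24 h by 0.15, -0.14, -0.12 and 0.04, and at 48 h by 0.06, -0.10 and 0.06. The S phase mean had one sign over all pairs of a time only at 6 h. At 12 h all 3 pairs were lower in RA for the mitotic mean (-0.11, -0.14 and -0.03) and for the G1 and checkpoint mean (-0.23, -0.02 and -0.12). On the fullest scan day of 6 h alone the S phase median was -0.19 and 0 genes passed.

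Between 48 h and 6 h the RA effect itself was compared, and 0 of the 46 genes passed, beside 0.0161% of all probe sets. At an unadjusted p under 0.05 stood 1 gene, and 294 of all 12422 probe sets. Cks1b had the largest difference between the effects, -0.60 ± 0.28 (limma, adjusted p = 1), and Kif11 and Tk1, which passed over time in controls alone, had 0.32 ± 0.30 and 0.14 ± 0.24 (adjusted p = 1 and 1). For 42 of the 46 the 95% interval of this difference lay within 1 on the log2 scale. Of the genes outside the list, Cdkn2b, which encodes the Cdk4 inhibitor p15, was higher in RA arrays over the 4 times (0.65 ± 0.13, adjusted p = 0.0144).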

How the data were processed

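Total RNA of control and RA explants was hybridised to Affymetrix MG_U74Av2 arrays, 27 in all. The deposited intensity values were normalised by the authors with RMA Express 0.2, per the submitters' processing notes, and GeneSpring followed, with no record of whether it changed them. They ran from 3.92 to 17003 on a linear scale, so log2 was taken once. RMA narrows differences between dim probe sets and gives no detection calls. Control probe sets (66) were dropped and 12422 were kept, each named through the array's annotation.

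Differences were tested with limma 3.58.1 (R 4.3.3), fitting all 8 groups together (19 residual degrees of freedom), with moderated variances and p values adjusted by Benjamini-Hochberg over all probe sets. Tables were made in Python 3.11.15 with numpy 2.4.6 and pandas 2.3.3, and plots with matplotlib 3.10.9. The model was tested on simulated data. The plan had assumed log2 values in the table, and the same test was run after the log2 step. The 46 genes, the lists, the motifs and the tests were chosen with earlier results of these data known. Full values are given for up to 3 genes that passed per group of function, or for the largest difference where none passed. Alternatives were a block for record pair, scan day or replicate number, cyclic loess, median centring, a filter on the 30% dimmest probe sets, an intensity trend, array weights, the groups compared alone, another probe set per gene, another grouping of 48 h control 3, and leaving out each array.

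Nothing in the labels says which arrays came from separate cultures, so the spread behind each p value is that between arrays and may be technical. After subtraction of the group means, same-numbered controls and RA arrays had correlations of 0.447 to 0.470 (6 h) and 0.229 to 0.622 (24 h), and numbers were read as pairs there. At 12 h (-0.05 to 0.26) and 48 h (-0.31 to 0.67) they were not. The 13 record pairs, of 1 scan day and consecutive record numbers, had a median correlation of 0.451, beside -0.203 for the 33 other combinations. In such small groups, subtraction of the means pushes other combinations negative where pairs are positive, so -0.203 is no independent baseline. What the record numbers count is not stated.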

Additional observations from a re-analysis of the deposited data

Results flagged for a closer look

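In groups of 4 arrays, 147 series of values were searched for an array whose gap to its neighbour, as a share of the range, exceeded Dixon's critical value at 95%, and 9 were found. Chance alone gives about 1 in 20 such groups. RA replicate 1 at 24 h was high for Mcm7 (10.18, the others 9.26 to 9.35), for Pold1 (8.62, the others 8.40 to 8.41) and for the mean of the S phase genes (8.84, the others 8.47 to 8.53). Control replicate 2 at 24 h was high for Ccnd2 (8.76, the others 6.01 to 6.40). Control replicate 4 at 24 h was low for Cdk4 (10.92, the others 11.77 to 11.88). RA replicate 3 at 24 h was low for Cdk2 (8.49, the others 8.62 to 8.64) and for E2f1 (6.56, the others 6.73 to 6.76), and RA replicate 2 for Chek1 (8.05, the others 8.81 to 8.94). Control replicate 4 at 48 h was low for Mki67 (8.14, the others 8.53 to 8.56). What set these arrays apart was not tested.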

How the results depend on the processing

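Of 1124 alternative medians of the gene groups, 18 moved by more than the spread between replicates and 32 changed sign. Of those 32, 24 were medians of RA against control, at most 0.103 in size, and 8 the mitotic median of RA arrays from 6 h to 12 h, whose value was 0.00065. Of 3128 alternative values of single genes that passed or were named, 322 no longer passed, 6 passed newly and 3 reversed. All 3 came from choosing the probe set of the largest variance, which gave -0.46 for Bub1 at 12 h in controls, -0.53 for Bub1 in RA arrays and -0.42 for Pold1 in RA arrays. With replicate number as a random block the counts were 10, 0, 5 and 21 in controls for the 4 intervals in order and 12, 0, 5 and 21 in RA arrays, and this block changed no count of RA against control. Record pairs as a fixed term, an alternative added after seeing the data, as were the values within single scan days, gave 2 genes for RA at 6 h and 2 in the mean, scan day as a block 1 in the mean, and array weights 1 at 6 h. From 6 h to 12 h controls gave 1 gene with scan day as a random block, 18 with array weights and 17 with only the groups compared, and RA arrays gave 5 with that block. From 12 h to 24 h controls gave 7 with scan day as a block and 12 with array weights, and RA arrays 1 with the block. From 24 h to 48 h controls gave 2 with the random block, 4 with cyclic loess, 3 with array weights and 1 with only the groups compared, and RA arrays 2 with the random block, 0 with only the groups compared and 9 with 48 h control 3 as RA. Between 6 h and 48 h only the groups compared gave 6 in controls. Without 1 array at a time, the counts ran from 3 to 11 at 12 h and from 3 to 8 between 24 h and 48 h in controls, and in RA arrays from 7 to 13, from 0 to 1 between 12 h and 24 h and from 3 to 8. Among the alternatives, shares of all probe sets are given only for fits with scan day or with record pairs as a fixed term. The other counts, those with arrays left out included, cannot be set against the whole array. The cause was not tested. Signal limits the dim Ccne2 (mean 3.42) and Mcm6 (4.53).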
